A study of Homo sapiens with 8 samples.

Results

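The protein-coding genes of MCF10CA1a.cl1 cells (M4) were compared with those of MCF10A cells (M1), the malignant and the non-tumorigenic end of a breast cancer progression series. The comparison rests on 4 of the 8 libraries of the series, 2 of each line, and its members are the 14089 protein-coding genes among the 18432 genes that passed a filter on low counts. MCF10A is a human breast epithelial line that became immortal in culture and does not form tumours. M4 is a line that forms carcinomas, derived from a xenograft of M2, which is MCF10A transfected with the activated T24-HRAS allele. The remaining libraries come from M2 and from M3, a related line of intermediate behaviour, and entered the fit as further groups. All lines had been grown as acini in Matrigel in medium with 2% horse serum, hydrocortisone, insulin and cholera toxin and were collected after 8 days. EGF at 10 ng/ml was present in the medium of M1 and M2 and absent from that of M3 and M4, so the line and the medium cannot be told apart in any difference given here. Each group is 1 established line, and M4 is 1 clone of it, so the replicates measure the spread between cultures of that line and not between tumours.

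Protein-coding programs are groups of genes that serve one cellular task or mark one cell identity. Cholesterol synthesis is switched on as a block by SREBP2, a membrane-bound transcription factor released when sterols are scarce. EGF-family ligands act on EGFR and its relatives, which signal through RAS and ERK to a layer of immediate targets and of phosphatases that dampen the pathway. Mammary epithelium holds an outer basal layer, marked by KRT5, KRT14, TP63 and the laminin anchorage, and an inner luminal layer, marked by KRT8, KRT18, GATA3 and MUC1, and MCF10A cells carry features of both.

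The libraries held between 69669972 and 107350336 counts. The totals of replicates 1 and 2 were 80777906 and 83512054 for M1, against 107350336 and 76071121 for M4. Replicates were further apart in M1 than elsewhere: the coefficient of variation between replicates, estimated over all genes, was 0.377 in M1, 0.271 in M4, 0.307 in M3 and 0.058 in M2. Of 11872 protein-coding genes over 1 CPM (a count scaled to a library total of 1000000) in M1, 159 were more than 4-fold higher in replicate 1 and 147 in replicate 2. Of the 8 columns of the FPKM table published with the study, 2 are nearest to a library of the other line: its first M2 column to the library labelled M1 replicate 2, and its second M1 column to the library labelled M2 replicate 1. The labels were followed here. In the counts, libraries that share a label were each other's nearest (Spearman rho 0.965 between the M1 libraries, 0.984 between the M4 libraries and 0.999 between the M2 libraries), against 0.955 between M1 replicate 2 and M2 replicate 1 and 0.954 between M1 replicate 2 and M2 replicate 2. The exchange would place the M2 libraries, the most alike of the series, in different lines. The names in the FPKM table run from M1 to M4 for replicate 1 and then for replicate 2, in the order of the count columns. Which assignment is right was not tested. Each gene list is also given with those libraries exchanged. HRAS, the gene transfected in the ancestor of M4, stood at 154 and 139 CPM in M1 against 335 and 352 in M4 (log2 fold change 1.23 ± 0.15, SE, adjusted p = 0.00119). Gene counts do not resolve the T24 allele.

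In M4, 1469 protein-coding genes (10.4% of the 14089 tested) were called higher and 1676 (11.9%) lower than in M1, at an adjusted p below 0.05 in edgeR's quasi-likelihood test and a change of more than 2-fold. With the exchanged libraries the calls were 659 (4.68%) and 734 (5.21%). These shares are the background for every count of list members called, with the labels or with the exchanged libraries. The scaling of the libraries assumes that most genes do not change, which places the centre near 0. On that scale the median log2 fold change over all protein-coding genes was 0.022, and the gene lists are read against it. Both M4 libraries lay above both M1 libraries in 36.2% of all protein-coding genes and below them in 33.2%, which is the background for every count of non-overlapping genes. Of the genes called, 288 rose and 605 fell by more than 8-fold. Genes called higher took up 5.13% of the library in M1 and 16.1% in M4, and genes called lower 21.6% and 8.85%.

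**Figure D1:**
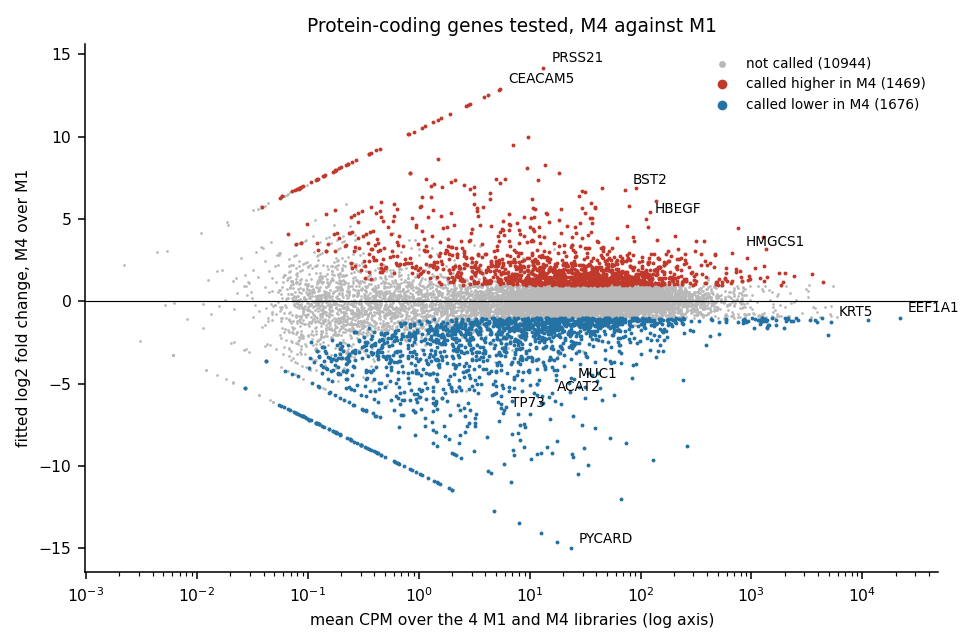
Mean level of each tested protein-coding gene over the M1 and M4 libraries (x axis, mean CPM on a log axis) against its fitted log2 fold change, M4 over M1 (y axis), with genes called higher or lower in colour. The 1469 higher and 1676 lower genes spread over the whole range of levels, and the straight bands at the left are genes without a count in one of the lines.

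Most of the genes with the largest rises had no count in M1. PRSS21 (testisin, a membrane serine protease of testis, chr16:2867181-2876305 in GRCh37) had no count in either M1 library and 28.1 and 25.1 CPM in M4, at least 732-fold higher against a floor of 3 counts a library. M3 also expressed it, at 56.4 and 42 CPM, and M2 did not. CEACAM5, a cell surface glycoprotein of gut and tumour epithelium, was at 0 in M1 against 17 and 4.83 CPM in M4 (at least 299.7-fold). Several more of the 12 largest rises are genes of the cornified layer of skin or of epithelial defence, namely SPRR2E (at least 293-fold), CRCT1 (at least 230.4-fold), the beta-defensin DEFB103B (at least 145-fold) and the interleukin IL36B (at least 104-fold). SPRR2E, CRCT1 and DEFB103B were each several times higher in M4 replicate 1 than in replicate 2, whereas PRSS21 and IL36B were even between the replicates. ZNF32 (at least 215-fold), the heparan sulfate sulfotransferase HS3ST2 (at least 159.8-fold), the serotonin receptor HTR1D (at least 74.3-fold) and the cytokine CSF2 (at least 63.2-fold) also had no count in M1. SPRR2A and LCE3D, both of the epidermal differentiation complex, had 1 or 2 counts in each M1 library. DEFB103B and the SPRR2 genes have near-identical copies, between which reads may have been divided.

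The largest fall was that of PYCARD, which encodes ASC, the adaptor that joins inflammasome sensors to caspase-1 (chr16:31212807-31214771 in GRCh37). It held 3674 and 4136 counts in the M1 libraries (44.4 and 50.5 CPM) and none in either M4 library, at least 1462-fold lower with adjusted p = 9.55e-05. The gene was expressed in M2 (30.5 and 31 CPM) and in M3 (29.6 and 15.9 CPM), so M4 was the one line without it. DAPL1, a gene of early epithelial differentiation, fell from 13.1 and 37.6 CPM to 0 (at least 781-fold) and the membrane protein MYADM from 8.24 and 11 CPM to 0 (at least 297-fold). The prostaglandin transporter SLCO2A1 (at least 124-fold), the delta-catenin CTNND2 (at least 123-fold), VSTM2L (at least 115-fold), the monooxygenase FMO2 (at least 95.6-fold), the zinc finger gene ZNF606 (at least 75-fold) and the ETS factor ETV7 (at least 66.7-fold) had no count in M4 either. WFDC2 (HE4, a secreted protease inhibitor of glandular epithelium) went from 61.6 and 207 CPM to 4 and 2 counts, CAPN6 from 17.4 and 92.2 CPM to 4 and 3 counts and SEMA6D from 18.4 and 8.71 CPM to 1 and 0 counts. CTNND2 and FMO2 were not called with the exchanged libraries.

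By absolute level, the largest gains included calcium-binding, annexin and keratin genes. S100A2, a calcium-binding protein of basal epithelium, went from 1622 and 1720 CPM to 6112 and 4640 (log2 fold change 1.69 ± 0.23, adjusted p = 0.00175). The membrane-binding ANXA2 rose by 1.15 and ANXA1 by 1.74 on the log2 scale. SQSTM1, the autophagy receptor p62, went from 562 and 391.9 to 2190 and 2093 CPM (2.17 ± 0.25, adjusted p = 0.00095) and the chaperone HSP90AA1 from 1115 and 1228 to 2407 and 2915 CPM (1.18). The largest losses by level included genes of the translation machinery, the respiratory chain gene MT-CO1 (-1.11) and the keratins KRT5 and KRT15. EEF1A1, which carries aminoacyl-tRNA to the ribosome, went from 25840 and 32070 to 14040 and 14800 CPM (-1.01), EEF1G fell by 1.11 and the ribosomal protein genes RPL13A (7249 and 8340 to 1789 and 2050 CPM, -2.02), RPL3 (-1.25), RPL7A (-1.13) and RPS2 (-1.13) were lower. These genes have many processed copies in the genome, so their counts depend on how reads with several matches were shared out. Of the genes named by level, S100A2, ANXA2, HSP90AA1, EEF1A1, EEF1G, RPL3, RPL7A and RPS2 were not called with the exchanged libraries, and EEF1A1 was not called after leaving out any 1 of the 4 libraries.

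Genes of cholesterol synthesis and uptake were higher in M4 along nearly the whole pathway. Of 26 listed genes 25 were tested, of which 21 were called higher and 1 lower, with a median log2 fold change of 2.23. The count was 19 higher and 1 lower with the exchanged libraries and between 19 and 21 higher after leaving out any 1 library. HMGCS1 (chr5:43287572-43313614 in GRCh37), which makes HMG-CoA from acetoacetyl-CoA, stood at 81.8 and 51.5 CPM (M1) against 1232 and 1633 (M4) (4.43 ± 0.31, adjusted p = 0.000188). Its levels in M2 (184 and 183 CPM) and M3 (212 and 306 CPM) lay between those of M1 and M4. Later steps of the mevalonate branch followed, with MVD from 59.1 and 32.1 to 609 and 555 CPM (3.67 ± 0.28), IDI1 at 2.85 and FDPS, the farnesyl diphosphate synthase, from 174 and 134 to 1129 and 1213 CPM (2.92 ± 0.18). All 12 genes from squalene to cholesterol were called higher, among them SQLE (108 and 61.1 to 334 and 486 CPM, 2.28), LSS (2.23), CYP51A1 (2.52) and HSD17B7 (2.64).

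ACAT2, the cytosolic thiolase that makes the acetoacetyl-CoA used by HMGCS1, moved the other way. It stood at 38.4 and 20.3 CPM (M1), 57.4 and 54.1 (M2), 102 and 81 (M3) and 0.511 and 0.551 (M4) (-5.79 ± 0.35, adjusted p = 0.000129). The M4 libraries lay far below the other 6, and the call held with the exchanged libraries and without any 1 library. The intracellular sterol carrier STARD4 rose by 2.80 on the log2 scale and INSIG1, which holds SREBP in the endoplasmic reticulum, from 61.7 and 25.2 to 365 and 422 CPM (3.18 ± 0.38). The transcription factor gene itself, SREBF2, was at 328 and 284 CPM in M1 against 328 and 379 in M4 (0.21 ± 0.14, adjusted p = 0.313) and was not called, nor was its escort SCAP (-0.70). The sister gene SREBF1, which favours fatty acid synthesis, was lower, at 469 and 456 CPM against 152 and 109.8 (-1.82 ± 0.24, adjusted p = 0.00169).

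**Figure D2:**
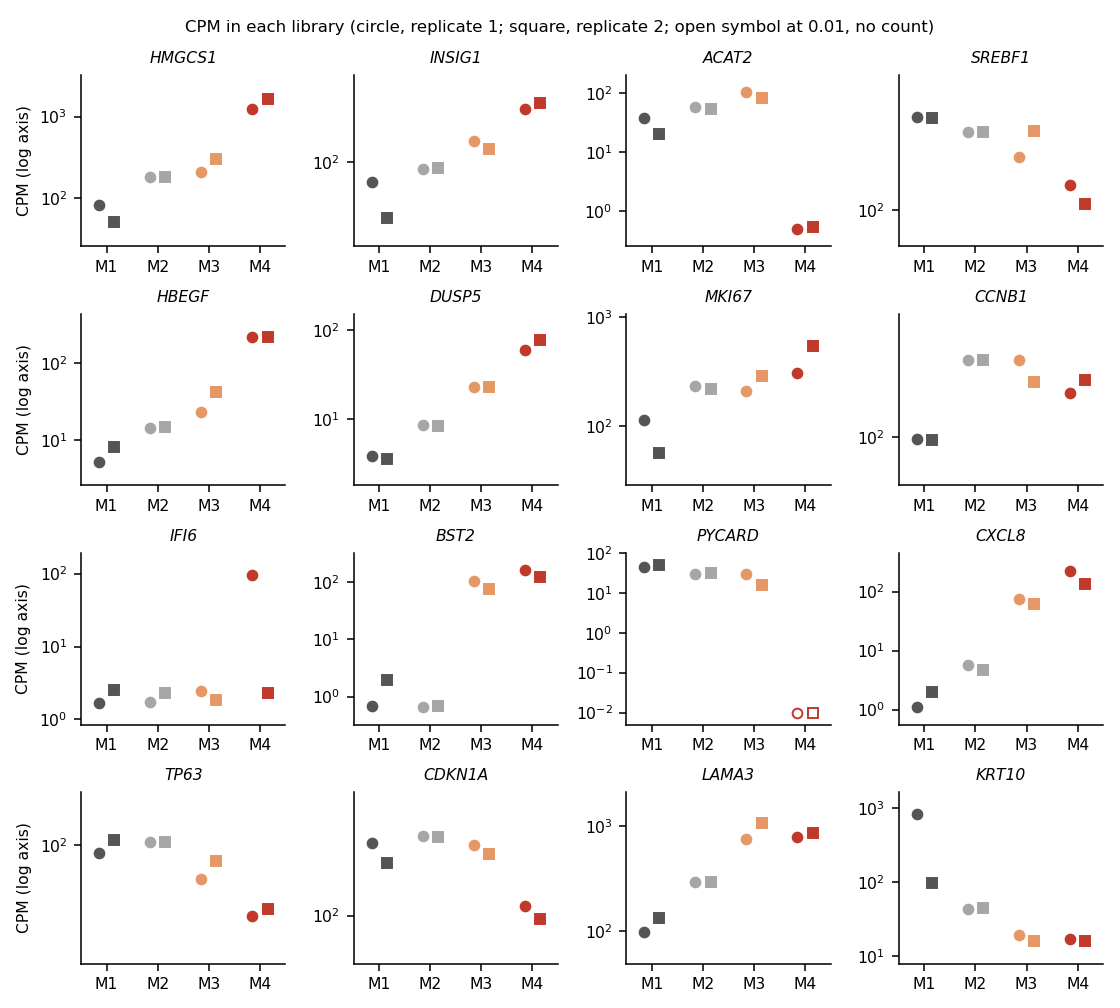
Level in each of the 8 libraries (y axis, CPM on a log axis) of 16 named genes, 1 panel a gene, by line along the x axis, with a circle for replicate 1, a square for replicate 2 and an open symbol where no read was counted. HMGCS1 and INSIG1 are higher in the M4 than in the M1 libraries, ACAT2 and PYCARD are at or near 0 in the M4 libraries alone, and IFI6 is high in M4 replicate 1 alone.

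Among 17 tested genes of fatty acid synthesis 5 were called higher and 2 lower, with a median log2 fold change of 0.86. The genes called higher were ACSS2 and ACLY, which supply acetyl-CoA (77.6 and 55.6 to 598 and 496 CPM, 3.04 ± 0.20, and 1.99), the elongase ELOVL6 (1.98) and the desaturases SCD (1211 and 643 to 2968 and 3121 CPM, 1.72 ± 0.29) and FADS1 (2.01). The fatty acid synthase FASN had a log2 fold change of 0.73 ± 0.48 and was not called, and ELOVL5 was lower (-1.47). M1 replicate 1 moves this count: without it 10 genes were called higher, and with the exchanged libraries 3 higher and 1 lower.

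The classical sequence bound by SREBP factors was searched in the promoters because the pathway moved as a block. Promoters are those of RefSeq (GRCh38.p14), 250 bases before to 50 after the start of each gene, read on both strands. The core TCACNCCAC was found in 1 of the 19 listed genes with a promoter entry, SREBF2 itself, and in 0 of the 16 called higher, against 1.15% of all 27305 promoters. The match in SREBF2 is printed with 12 bases on each side and the matched letters in capitals, at chr22:41832960-41832992 on the plus strand.
SREBF2: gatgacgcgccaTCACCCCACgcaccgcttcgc
The search covers only these letters and this window, and variants of the element were not searched.

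Several EGF-family ligands were higher in M4, which was grown without added EGF, while the receptors were not called. Of 10 ligand genes tested, 5 were called higher and 1 lower, and of 3 receptor genes 0 were called by edgeR or by DESeq2 (2 had an unadjusted p below 0.05, both lower), with EGFR at 203 and 192 CPM in M1 against 193 and 232 in M4 (0.10 ± 0.17, adjusted p = 0.666) and ERBB2 at a log2 fold change of -0.43 ± 0.14. EREG (epiregulin) rose from 0.749 and 0.768 to 79.2 and 100.1 CPM (6.88 ± 0.35, adjusted p = 9.55e-05), with 47.8 and 87.6 CPM in M3. HBEGF, the heparin-binding ligand, stood at 5.22 and 8.34 CPM (M1), 14.4 and 15 (M2), 23.4 and 41.9 (M3) and 218 and 219.8 (M4) (5.01 ± 0.35, adjusted p = 0.000173). The M4 libraries stood clear of all others for HBEGF, whereas M3 reached the M4 range for EREG and exceeded it for TGFA. TGFA went from 21.4 and 12.1 to 101 and 124 CPM (2.75 ± 0.29), NRG1 rose by 4.08, and AREG went from 25.8 and 90.4 to 312 and 218 CPM (2.19 ± 0.53), below its level in M2 and M3. The ligand NRG4 (-1.87) and LRIG1, a membrane inhibitor of these receptors (-2.55), were lower. With the exchanged libraries 3 members of the whole list of 18 tested genes were called higher and 1 lower, and EREG, AREG and LRIG1 lost their calls. Of the whole list, 5 were called higher and 2 lower with a median of -0.15, and the count of lower genes became 4 without the first M1 replicate and 1 when either second replicate was left out.

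Downstream of the receptors, 15 of 29 genes of ERK feedback and output were called higher and 2 lower (median 1.29), and 14 and 0 with the exchanged libraries, where 2 were lower at an unadjusted p below 0.05. The feedback phosphatase DUSP5, which acts on nuclear ERK, rose from 3.83 and 3.56 to 59.4 and 76.9 CPM (4.20 ± 0.18, adjusted p = 9.55e-05). DUSP6, its cytoplasmic relative, rose less (1.44 ± 0.39), and the feedback inhibitors SPRY4 (2.91) and SPRED2 (2.06) were higher while SPRY1 was lower (-2.21). Of the 12 transcription factors listed 6 were called higher, led by FOSL1 (FRA1) at 10.6 and 15.4 CPM in M1 against 167 and 158 in M4 (3.65 ± 0.20, adjusted p = 9.55e-05). MYC was at 411 and 431 CPM in M1 against 252 and 362 in M4 (-0.46 ± 0.19, adjusted p = 0.0992) and was not called. Targets called higher were the cytokine LIF (3.32 and 8.9 to 161 and 129.6 CPM, 4.57 ± 0.53), the urokinase receptor PLAUR (3.04) and urokinase PLAU (2.63), the ephrin receptor EPHA2 (2.6) and cyclin D1, CCND1 (1.18). EPHA4 was lower (-2.26). No lower gene was called without M4 replicate 2 and 1 without M4 replicate 1, and the count of higher genes ran from 11 without either M4 replicate to 20 without M1 replicate 2. The AP-1 motif TGANTCA was found in 2 of the 18 listed promoters (11.1%), against 7.76% of all promoters.

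The cell cycle genes were higher in M4 with the labels as given and were not called with the exchanged libraries. Of 41 mitotic genes 35 were called higher and 0 lower (median 1.5), and both M4 libraries lay above both M1 libraries in all 41. Of 37 DNA replication genes 17 were called higher and 0 lower (median 0.96), with 32 non-overlapping above. With the exchanged libraries 0 mitotic and 0 replication genes were called by edgeR, and at an unadjusted p below 0.05 there were 0 and 1, against 41 and 29 with the labels. DESeq2 was run with the labels alone and called 36 and 18. M2 stood near or above M4 in several of them. CCNB1 (cyclin B1) was at 97.4 and 96.4 CPM (M1), 322 and 324 (M2), 323 and 232 (M3) and 196 and 239 (M4) (1.17 ± 0.19, adjusted p = 0.00362). M1 was thus the lowest line for CCNB1 and M4 was not the highest. MKI67, the Ki-67 antigen, was at 114 and 57.1 CPM (M1), 236 and 221 (M2), 212 and 292 (M3) and 311 and 541 (M4) (2.32 ± 0.38, adjusted p = 0.00422). The kinetochore motor CENPE (2.43), the checkpoint kinase TTK (1.99), MELK (1.76) and the mitotic kinase PLK1 (51 and 39.9 to 126 and 149 CPM, 1.6) were also called higher. Of the replication genes, the licensing factor CDC6 rose from 27.7 and 23 to 95.8 and 105 CPM (1.98 ± 0.16), MCM10 by 1.90 and the ribonucleotide reductase subunit RRM2 by 1.87. Leaving out 1 library at a time gave 32 to 37 mitotic and 14 to 20 replication genes called higher.

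Promoters of mitotic genes carry the CHR element, TTTGAA, and CCAAT boxes, and those of many replication genes carry E2F sites. TTTGAA was found in 22 of the 35 mitotic genes with a promoter entry (62.9%), against 15.4% of all promoters, and CCAAT in 27 of them (77.1%), against 35.7%. Of the 29 called higher, 19 held TTTGAA and 21 held CCAAT. The E2F motif TTTNNCGC was found in 18 of 32 replication genes (56.2%) but in 6 of the 15 of these called higher, against 6.90% of all promoters. Matches in 4 genes called higher are printed in the direction of the gene, with 12 bases on each side and the motif in capitals. PLK1 lies at chr16:23678848-23678877 (plus strand), KIF23 at chr15:69414282-69414311 (plus strand), MKI67 at chr10:128126435-128126464 (minus strand) and CDC6 at chr17:40287874-40287905 (plus strand), all in GRCh38.p14.
PLK1: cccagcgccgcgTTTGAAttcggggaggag
KIF23: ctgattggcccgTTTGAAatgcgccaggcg
MKI67: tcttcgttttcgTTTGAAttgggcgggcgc
CDC6: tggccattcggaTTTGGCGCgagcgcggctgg
The first 3 hold the CHR element and CDC6 the E2F motif. A match describes the letters and not a bound site.

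Control of G1 differed by role. None of the 5 tested inhibitors of cyclin-dependent kinases was called higher and 3 were called lower, and of the 10 RB and E2F genes 3 were higher and 0 lower. CDKN1A (p21), an inhibitor induced by DNA damage, went from 311 and 228 to 116 and 94.2 CPM (-1.36 ± 0.19, adjusted p = 0.00215), CDKN1B (p27) fell by 1.20 and CDKN2C by 1.18 on the log2 scale. CDKN2A and CDKN2B had no count in any M1 or M4 library. E2F7, a repressor of the E2F family, rose from 8.71 and 8.36 to 82 and 86.3 CPM (3.30 ± 0.16, adjusted p = 9.55e-05) and did not overlap between the lines. Over its 23 tested genes, 5 were called higher and 3 lower with the labels and 2 higher and 2 lower with the exchanged libraries.

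The related factors TP63 and TP73 were lower in M4, while genes of the DNA damage and stress response were more often higher than lower. The basal factor TP63 went from 89.6 and 108 to 36.2 and 39.8 CPM (-1.38 ± 0.17) and TP73 from 5.15 and 17.6 to 0.0793 and 0.128 CPM (-6.79 ± 0.72). The levels of both did not overlap between the lines, and TP73 was already near its M4 level in M3 (0.265 and 0.471 CPM). Over the 29 genes of the list, which include the factors, 9 were called higher and 6 lower (median 0.46), and 8 and 5 with the exchanged libraries. The 24 response genes without the factor family had 8 higher and 3 lower (median 0.67), and 7 and 2 with the exchanged libraries. MDM2, a ubiquitin ligase, rose from 64.2 and 48.5 to 220.5 and 266 CPM (2.11 ± 0.18) and the stress cytokine GDF15 from 8.67 and 12.7 to 163 and 156 CPM (3.90 ± 0.40). The kinase PLK3 (3.21), the pro-apoptotic PMAIP1 (2.81), GADD45A (1.95) and SFN (14-3-3 sigma, 1.56) were higher too. SESN1 (-1.22) and CDKN1A were lower. PIK3CA, a kinase gene often altered in breast tumours, was at 26.8 and 17.8 CPM in M1 against 38.3 and 46.9 in M4 (log2 fold change 0.93 ± 0.22, under the 2-fold limit).

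In the inflammasome list 4 of 6 cytokine genes were called higher and 1 lower, and 2 of 6 sensor and adaptor genes, PYCARD and CARD8, were called lower. IL1B, which the inflammasome activates, was at 0.834 and 0.427 CPM in M1, 13.7 and 8.85 in M3 and 91.7 and 33.6 in M4 (6.63 ± 0.61, adjusted p = 0.000474), and IL1A rose from 2.59 and 0.378 to 94.6 and 58.7 CPM (5.69 ± 0.78). The receptor antagonists IL1RN (12.1 and 4.09 to 164 and 65.4 CPM, 3.82 ± 0.66) and IL36RN (5.39) were higher as well, so genes for both the agonists and their antagonists were up. CARD8 (-1.48) and the alarmin IL33 (-2.48) were lower, and CASP1 had a log2 fold change of -1.67 ± 0.56 and was not called. Over 19 tested genes 5 were called higher and 3 lower (median 0.21), and 4 and 2 with the exchanged libraries. Without M1 replicate 1 there were 4 higher and 5 lower.

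Of 24 tested epithelial chemokines and cytokines 10 were called higher and 3 lower (median 1.0), and 6 and 1 with the exchanged libraries. The neutrophil attractant CXCL8 (interleukin 8) rose from 1.11 and 1.95 to 228 and 135 CPM (6.89 ± 0.40, adjusted p = 0.000112), with 76 and 61.9 CPM in M3. IL24 (0.0363 and 0.146 to 6.48 and 11.1 CPM, 6.57 ± 0.69) and IL32 (2.71) were higher, and IL6 was at 0 in M1 against 1.12 and 0.525 CPM in M4. CXCL1 was higher with little margin, at 7.7 and 18.4 CPM against 58.5 and 22.1 (1.63 ± 0.51, adjusted p = 0.0472). CXCL14, a chemokine of resting epithelium, went from 25.2 and 10.2 to 0.0352 and 0.0384 CPM (-8.86 ± 0.76), and the membrane-tethered CX3CL1 (-8.78) and macrophage growth factor CSF1 (-1.90) were lower. CXCL14 was at 0.167 and 0.0569 CPM in M2 and 0.227 and 0.367 in M3, so for this gene M1 was the line that stood apart, and its call was lost with the exchanged libraries. Without M1 replicate 1 there were 6 higher and 5 lower, and without M4 replicate 1 there were 6 and 3.

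Interferon-response genes were high in one of the M4 libraries. Of 48 tested genes 23 were called higher and 3 lower (median 1.20), and 9 and 0 with the exchanged libraries, where 3 were lower at an unadjusted p below 0.05. Among the 30 tested effectors 19 were called higher. IFI6 was at 1.7 and 2.57 CPM (M1) against 96.5 and 2.28 (M4) (4.53 ± 1.40, adjusted p = 0.0447), IFI27 at 0.121 and 0.159 and 45.7 and 1.87 CPM, IFIT1 at 0.931 and 0.988 and 39 and 1.67 CPM, and ISG15 at 3.84 and 2.79 and 59.8 and 7 CPM. In IFI6 the second M4 library lay within the range of M1. The summed level of the 50 listed genes was 1070 and 1380 CPM in M1 and 2300 and 1230 CPM in M4, so M4 replicate 2 did not exceed M1 replicate 2. The number called higher depended on single libraries, being 10 and 11 when replicate 1 or 2 of M1 was left out, 10 and 27 when replicate 1 or 2 of M4 was, and was 9 in a fit of the M1 and M4 libraries alone. BST2 (tetherin, which retains budding virus at the membrane) did not follow that library, standing at 0.689 and 1.96 CPM (M1), 0.648 and 0.697 (M2), 105 and 75.8 (M3) and 163 and 125 (M4) (6.76 ± 0.50, adjusted p = 0.000226). OASL (0.302 and 0.354 to 19.6 and 6.09 CPM, 5.29 ± 0.61), the RNA sensor RIGI (12.6 and 12.6 to 80.5 and 34.1 CPM, 2.19 ± 0.36) and the DNA sensor CGAS (1.43) were also higher in both M4 libraries. IFITM2 (-3.68), IFITM3 (-1.80) and the receptor gene IFNGR1 (151 and 149.7 to 66.1 and 57.5 CPM, -1.28) were lower.

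The interferon-stimulated response element, spelled TTTC, any 2 bases and TTTC, was found in 21 of the 38 listed genes with a promoter entry (55.3%) and in 13 of the 17 of these called higher, against 3.65% of all promoters. Windows of genes that were high in M4 replicate 1 are printed beside that of BST2, which was high in both M4 libraries, in the direction of the gene with the element in capitals, which reads GAAA, any 2 bases and GAAA where it lies on the opposite strand. IFIT1 lies at chr10:89392508-89392541 (plus strand), IFI27 at chr14:94110616-94110649 (plus strand), IFI6 at chr1:27672286-27672319 (minus strand) and BST2 at chr19:17405739-17405772 (minus strand) in GRCh38.p14.
IFIT1: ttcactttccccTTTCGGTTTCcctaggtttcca
IFI27: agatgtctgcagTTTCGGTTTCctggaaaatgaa
IFI6: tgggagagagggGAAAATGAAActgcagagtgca
BST2: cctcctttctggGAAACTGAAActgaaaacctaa
The 4 windows were chosen because they hold the element, so they do not compare genes that followed M4 replicate 1 with BST2.

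Antigen presentation differed between its branches. Of 15 class I genes 7 were called higher and 1 lower, and of 12 tested class II genes 1 was higher and 7 lower. With the exchanged libraries class I had 3 higher and 1 lower, and class II 0 and 5. A fit of the M1 and M4 libraries alone gave 6 and 1 in class I, and 0 and 2 in class II. The class I genes summed to 1090 and 1150 CPM in M1 and 1470 and 1160 in M4, so M4 replicate 2 was near M1. The class I median was 0.56, and 0.36 without M4 replicate 1. HLA-B (12.3 and 17.5 to 87.2 and 40.9 CPM, 2.10 ± 0.34), HLA-F (2.20) and the peptide transporter TAP1 (1.37) were higher, whereas HLA-C went from 166 and 144 to 57.4 and 35 CPM (-1.75 ± 0.23). The HLA genes share long stretches, so reads may have been divided between them. CD74, the invariant chain of class II, was at 0.435 and 16.5 CPM (M1), 41.2 and 40.9 (M2), 20.4 and 25 (M3) and 0 and 0.0128 (M4). For CD74 the replicates of M1 themselves lay far apart, and M1 replicate 2 lay nearer to M2 and M3 than M1 replicate 1 did. HLA-DRA was at 0.145 and 2.79 CPM in M1 and 0 in M4. The class II master regulator CIITA (-3.40) and its partner RFX5 (61.4 and 58.4 to 25 and 24.9 CPM, -1.26 ± 0.17) were lower. With the exchanged libraries the whole list had 3 higher and 6 lower against 8 and 8 with the labels. In a fit of the M1 and M4 libraries alone the whole list had 6 higher and 3 lower. It had 5 and 3 without M4 replicate 1 and 8 and 2 without M4 replicate 2.

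The attachment machinery of basal cells was higher and several basal keratins were lower. Of 11 genes of basement membrane anchoring 7 were called higher and 0 lower (median 1.24). Of the laminin chains, LAMA3 (chr18:21269417-21536186 in GRCh37) rose from 98.2 and 134 to 783 and 871 CPM (2.83 ± 0.24, adjusted p = 0.000302) and LAMB3 from 183 and 319.6 to 1574 and 1559 CPM (2.64 ± 0.26). The integrin chains that bind laminin, ITGA3 (2.06), ITGA6 (1.24) and ITGB1 (1.15), and the linker PLEC (1.84) were called higher. Of 8 basal keratins 1 was higher, the wound keratin KRT6B (196 and 343 to 2434 and 2469 CPM, 3.19 ± 0.27), and 3 lower, KRT5 (8414 and 6203 to 3268 and 2838 CPM, -1.26 ± 0.24), KRT14 (17.7 and 8.26 to 2.3 and 2.74 CPM, -2.37 ± 0.33) and KRT15 (-1.0). Per kilobase of exon, KRT5 was at 1768 CPM in M1 and 739 in M4 and KRT6B at 117 and 1065. KRT6B stood above KRT5 in M4 on this scale of level per length, with the reservation that KRT6A, KRT6B and KRT6C are near-identical. KRT17 had a log2 fold change of 0.96 ± 0.27 and was not called, TP63 was lower as given above and NGFR fell by 3.57. Over the 26 tested genes 8 were called higher and 5 lower (median 0.67), but 2 and 3 with the exchanged libraries, under which LAMA3 and KRT6B lost their calls. The count of lower genes was 2 without M4 replicate 2, under which KRT5 and KRT15 lost theirs.

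Of the luminal markers, 3 of 4 keratins and 5 of 11 tested surface genes were called higher, and 4 of 12 transcription factors lower. The other keratin, KRT19, lay lower in both M4 libraries than in both M1 libraries, and DESeq2 but not edgeR called it lower. The keratin median was 1.39, and 1.02 without M4 replicate 1. Of the 20 surface and secreted genes listed 11 were tested. In edgeR 1 of these was called lower, and DESeq2 called 4 higher and 3 lower. KRT18 rose from 414 and 445 to 2089 and 1340 CPM (2.0 ± 0.22, adjusted p = 0.000865), its partner KRT8 by 1.26 and KRT7 from 1669 and 835 to 4335 and 2851 CPM (1.52 ± 0.37). EPCAM, the tight junction claudins CLDN4 (49.5 and 46.4 to 379 and 271 CPM, 2.76 ± 0.23) and CLDN7 (1.97), and the aldehyde dehydrogenase ALDH1A3 (2.08) were higher too, EPCAM by 1.57. Among the factors 1 was called higher, XBP1 (1.14). GATA3, the master factor of the luminal lineage, was at 74.7 and 98.4 CPM (M1), 42.9 and 44.3 (M2), 18 and 15.4 (M3) and 14.7 and 16.5 (M4) (-2.47 ± 0.18, adjusted p = 0.000219). The M3 libraries overlapped those of M4. EHF (-1.83) and SPDEF (2.61 and 3.84 to 0.0441 and 0.0641 CPM) were lower. The apical mucin MUC1 fell from 56.5 and 32.2 to 1.78 and 0.999 CPM (-4.98 ± 0.37, adjusted p = 0.000219). Over 27 tested genes the list had 9 higher and 5 lower (median -0.18), and 7 and 3 with the exchanged libraries. Fewer cells of a type and less RNA per cell cannot be told apart in these bulk libraries.

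**Figure D3:**
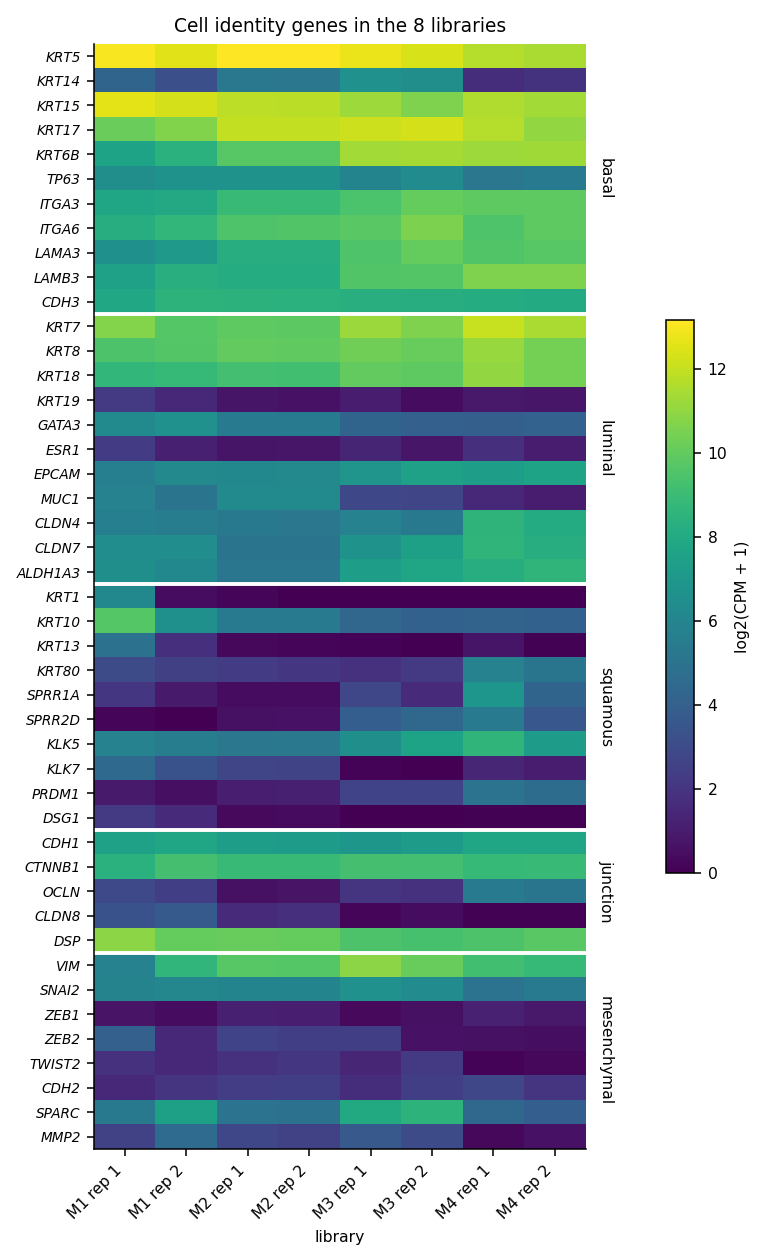
Level of basal, luminal, squamous, junction and mesenchymal genes (rows) in the 8 libraries (columns), coloured by log2 of CPM plus 1. The LAMA3 and LAMB3 rows are brighter in M4 than in M1, the GATA3 and MUC1 rows are darker in M3 and M4 than in M1, and the KRT10 row is bright in M1 replicate 1.

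Genes of squamous differentiation moved in both directions. Of 16 cornified envelope genes 4 were called higher and 1 lower, with SPRR1A rising from 3.18 and 0.939 to 119 and 17.8 CPM (5.05 ± 1.06) and SPRR2D by 8.30. The envelope genes called higher were 9 without M1 replicate 1. Of 6 suprabasal keratins 4 were called lower and 1, KRT80 (2.97), higher. The number of these keratins called lower was 1 with the exchanged libraries or without M4 replicate 2, and 2 without M4 replicate 1 or without the M2 libraries. KRT10 was at 836 and 96.9 CPM (M1), 44 and 44.3 (M2), 19.1 and 15.9 (M3) and 17.3 and 16.1 (M4) (-4.80 ± 0.90), and KRT1 at 70.8 and 0.378 CPM in M1 and 0 in M4. M1 replicate 1 alone carried most of the KRT1 and KRT10 signal, and KRT4, another squamous keratin, had 2933 counts in that library and none in M1 replicate 2. The factor PRDM1 (BLIMP1), which drives terminal differentiation, rose from 0.906 and 0.476 to 31.3 and 24.5 CPM (5.33 ± 0.36, adjusted p = 0.000165) and KLF4 by 1.18, whereas ZNF750 was lower (-1.36). Kallikrein proteases were divided, with KLK5 (2.38) and KLK6 (2.53) higher and KLK7 (-3.51) and KLK8 (-7.93) lower, and the desmosomal cadherin DSG1 fell from 3.78 and 1.93 to 0.0441 and 0.0384 CPM (-6.05 ± 0.61). Over 37 tested genes 9 were called higher and 9 lower (median 0.30), 8 and 3 with the exchanged libraries, 16 and 7 without M1 replicate 1 and 9 and 4 without M4 replicate 2.

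Among junction genes E-cadherin was not called and the claudins moved in both directions. CDH1 was at 185 and 220.1 CPM in M1 against 222 and 211 in M4 (0.09 ± 0.15, adjusted p = 0.659), with overlapping libraries. Of the 7 adherens junction genes 0 were called by edgeR or by DESeq2, and 0 had an unadjusted p below 0.05 in edgeR. Of 16 tight junction genes 6 were called higher and 2 lower. OCLN (occludin) rose from 6.55 and 4.36 to 40.1 and 33.5 CPM (2.75 ± 0.26) and CLDN12 by 1.95. CLDN8 fell from 8.88 and 12.4 to 0.0705 and 0.0641 CPM (-7.26 ± 0.62, adjusted p = 0.000331), and the desmosomal plaque gene PKP1 by 2.35 on the log2 scale. Over the 44 genes of the list 8 were called higher and 3 lower (median 0.21), against 10.4% and 11.9% of all protein-coding genes. With the exchanged libraries 4 and 2 were called, and OCLN lost its call. The list had 1 gene called lower without M1 replicate 1 and 1 without M4 replicate 2.

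Mesenchymal genes were more often lower than higher, 8 against 3 of 27 tested (median -0.80), and 7 against 0 with the exchanged libraries, where 2 were higher at an unadjusted p below 0.05. The lower medians were those of the factor genes (-0.96) and the matrix genes (-1.16). The 10 cytoskeleton and surface genes had a median of 0.47, with 2 called higher and 1 lower. Of 9 factor genes tested 1 was higher, SNAI1 (1.08 and 0.708 to 2.44 and 6.04 CPM, 2.25 ± 0.54), and 4 lower, TWIST2 (2.61 and 1.83 to 0.106 and 0.231 CPM, -3.74 ± 0.57), ZEB2 (-4.21), FOXC2 (-4.79) and TCF4 (-1.89). SNAI2 was not called (-0.80 ± 0.18). VIM (vimentin) was at 55.5 and 408 CPM in M1 against 573 and 451 in M4 (1.14 ± 0.76, adjusted p = 0.292), and the M1 replicates differed more from each other than M1 replicate 2 from M4. S100A4 (-2.71) and the matrix genes SPARC (39.4 and 181 to 19.9 and 14.4 CPM, -2.68) and MMP2 (4.83 and 23.6 to 0.203 and 0.551 CPM, -5.26) were lower. The fibronectin receptor chain ITGA5 (55.1 and 49.4 to 189.5 and 197 CPM, 1.89 ± 0.14) and NRP1 (1.70) were higher. Without M4 replicate 1, 5 genes were called lower. Of the 10 tested myoepithelial contractile genes 2 were called higher and 1 lower, against 10.4% and 11.9% of all protein-coding genes. In this list SMTN (smoothelin) was at 22.9 and 36.2 CPM in M1 against 233 and 208 in M4 (2.90 ± 0.22), and ACTA2, smooth muscle actin, was not called (0.11 ± 0.66). That list had 1 higher and 0 lower with the exchanged libraries (1 lower at an unadjusted p below 0.05), and the same counts on leaving out M1 replicate 2 or either M4 library.

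Matrix genes and their proteases moved in both directions, 12 of 51 tested higher and 14 lower (median -0.15), and 4 and 6 with the exchanged libraries. The basement membrane collagen pair COL4A1 (5.97 and 10.7 to 26.1 and 33.4 CPM, 1.84 ± 0.39) and COL4A2 (2.0) was higher, while the pair COL4A5 (123 and 209.9 to 56.8 and 49.7 CPM, -1.65 ± 0.25) and COL4A6 (-2.15) was lower. The adhesive glycoprotein THBS1 rose from 75.7 and 146 to 860.4 and 799.5 CPM (2.90 ± 0.41) and the protease inhibitor SERPINE2 by 2.66. Nidogen NID1 (4.86 and 0.378 to 0.0264 and 0 CPM), MATN2 (-5.13), the inhibitor TIMP3 (174 and 53 to 11 and 17.4 CPM, -3.0 ± 0.57) and the plasminogen activator PLAT (-2.44) were lower. Urokinase (PLAU) and its receptor were thus higher and the tissue-type activator lower. The list had 7 genes called higher without M1 replicate 1, and 7 lower without M4 replicate 1, or 9 without M4 replicate 2.

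**Figure D4:**
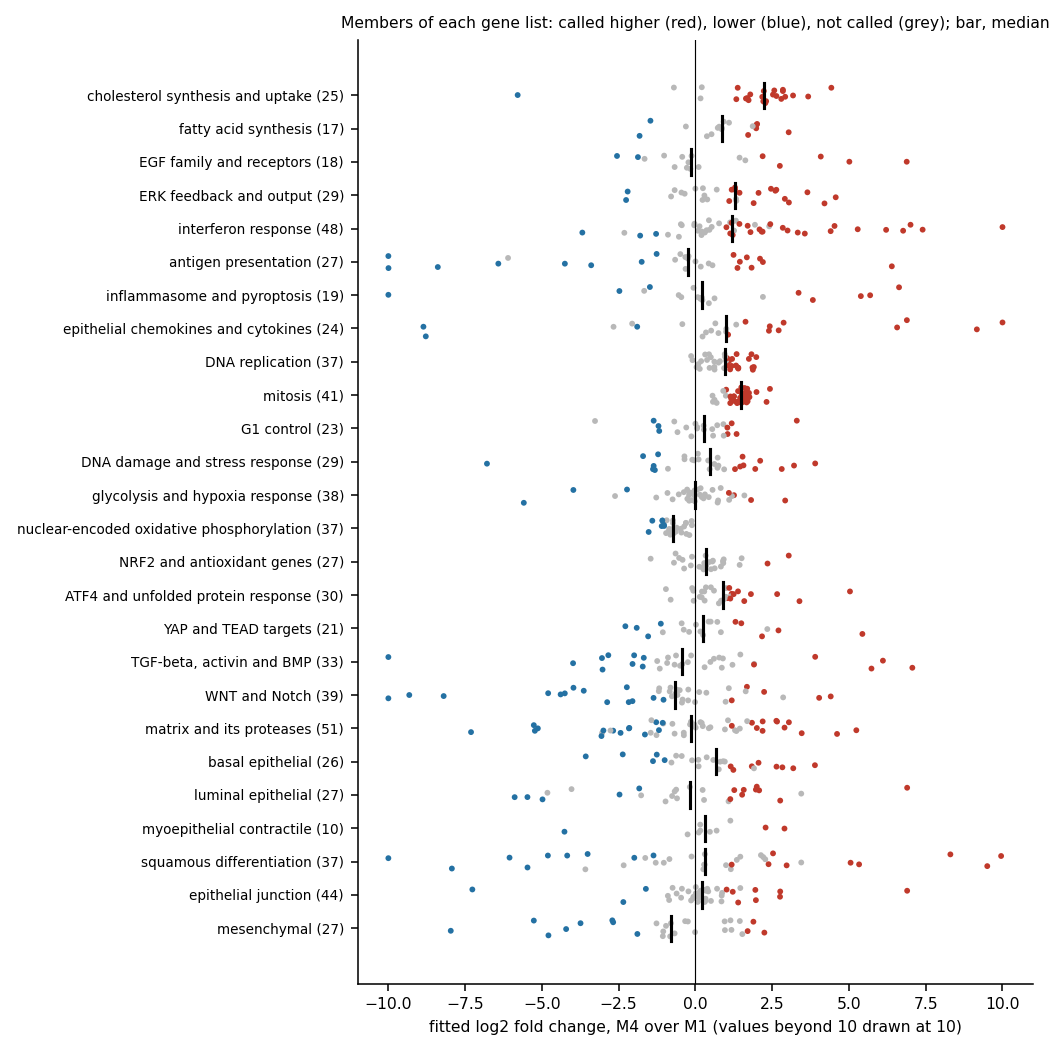
Fitted log2 fold change, M4 over M1 (x axis), of each tested gene in the gene lists (rows), with genes called higher in red, lower in blue, a bar at the list median and values beyond 10 drawn at 10. The mitosis list lies entirely to the right of 0 and the cholesterol and DNA replication lists almost entirely, the oxidative phosphorylation list lies entirely to its left, and the other lists straddle 0.

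Within the TGF-beta superfamily, ligand genes moved in both directions. INHBA, the activin A subunit, rose from 3.13 and 4.7 to 238 and 302 CPM (6.11 ± 0.27, adjusted p = 9.55e-05), while INHBB fell from 0.773 and 2.71 CPM to 0 (at least 53.7-fold). BMP7 rose from 0.0483 and 0.0244 to 3.5 and 6.64 CPM (7.06 ± 0.60). TGFB1 fell from 50.9 and 74.2 to 16.8 and 13.4 CPM (-2.05 ± 0.21, adjusted p = 0.000565), and TGFB2 (-2.0) and TGFB3 (-1.72) were lower too, so all 3 TGF-beta genes were lower. The activin antagonist FST (follistatin) was higher in both M4 libraries but uneven between them, at 133 and 18.7 CPM against 0.35 and 2.5 in M1 (5.73 ± 1.16), and the BMP antagonist NOG rose by 1.91. ID2 (-2.84), ID3 (378 and 115 to 69.5 and 84 CPM, -1.68) and ID4 (-3.98), which BMP signals induce, were lower, with M1 replicate 1 the highest library for each of the 3. The co-receptor TGFBR3 fell by 3.02 and TGFBR2 was not called (-0.92 ± 0.18). Over 33 tested genes 5 were called higher and 9 lower (median -0.43), and 5 and 4 with the exchanged libraries. The counts were 8 and 9 when the first M1 library was left out, 8 and 8 when the second was, and 5 and 5 without M4 replicate 1.

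WNT and Notch genes were more often lower than higher, 14 against 5 of 39 tested (median -0.65), and 7 against 4 with the exchanged libraries. Among WNT ligands WNT9A (4.11 and 3.65 to 59.8 and 66.9 CPM, 4.03 ± 0.38), WNT7A (4.41) and WNT7B (2.24) were higher, and WNT10A (4.17 and 4.75 to 0.141 and 0.179 CPM, -4.80 ± 0.38), WNT5A (-8.20) and WNT4 (5.63 and 2.32 to 0.115 and 0.269 CPM, -4.39) were lower. The receptors FZD1 (-2.05) and FZD7 (16.9 and 32.7 to 3.58 and 7 CPM, -2.23) were lower and FZD8 higher (1.68), and AXIN2, a feedback target of the beta-catenin branch, was below 1 CPM in every library (-3.97 ± 1.13). In the Notch pathway the ligand JAG1 was higher (1.18), the ligand DLL1 went from 1.44 and 2.66 CPM to 0 (at least 63.2-fold), and the targets HES1 (32.6 and 47.4 to 20.9 and 18 CPM, -1.04), HEY1 (-2.17) and NRARP (-2.87) were lower. The list had 8 genes called lower without M1 replicate 2 and 7 without M4 replicate 2, where 3 were higher.

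YAP and TEAD genes moved in both directions, with 5 of 21 called higher and 4 lower (median 0.25), and 2 and 1 with the exchanged libraries. NT5E (CD73, which makes adenosine) rose from 6.36 and 4.53 to 272 and 199 CPM (5.44 ± 0.31, adjusted p = 9.55e-05), with 318 and 212 CPM in M3. CCN2 (2.68 and 4.03 to 32.5 and 11.3 CPM, 2.70 ± 0.49), tissue factor F3 (2.17) and the co-activator WWTR1 (TAZ, 1.49) were higher, TEAD2 was lower (42.8 and 79.3 to 10.4 and 14.7 CPM, -2.28 ± 0.32) and YAP1 was not called (0.02 ± 0.14). The list had 3 genes called higher without M1 replicate 2 and 3 without M4 replicate 1.

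In the stress responses, 7 of 17 genes of the ATF4 branch and 4 of 13 genes of the unfolded protein response were called higher, the latter count being 2 with the exchanged libraries or without M4 replicate 1. Of all 30 genes 11 were called higher and 0 lower (median 0.89, 2 lower at an unadjusted p below 0.05), and 7 and 0 with the exchanged libraries or without M4 replicate 1. ATF3 rose from 1.92 and 2.38 to 83.1 and 57.8 CPM (5.03 ± 0.43, adjusted p = 0.000344), with 5.73 and 2.43 CPM in M3, and TRIB3 from 36.8 and 42.2 to 209.7 and 289.9 CPM (2.66 ± 0.21). CHAC1, which degrades glutathione (3.39), the phosphatase subunit PPP1R15A (1.81), DDIT3 (CHOP, 1.59) and the chaperone HSPA5 (BiP, 344 and 628 to 1113 and 1192 CPM, 1.25 ± 0.33) were higher as well. CHAC1 and DDIT3 were each more than 2-fold higher in M4 replicate 1 than in replicate 2, and ATF4 itself was not called (0.14 ± 0.15). Among 27 tested NRF2 and antioxidant genes 2 were called higher and 0 lower (median 0.35, 7 and 3 at an unadjusted p below 0.05), the cystine transporter SLC7A11 (15.7 and 7.03 to 60.03 and 127 CPM, 3.04 ± 0.61) and OSGIN1 (2.35), and 7 were higher without M1 replicate 1. With the exchanged libraries that list had 2 higher and 0 lower (1 lower at an unadjusted p below 0.05).

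Respiratory chain genes were lower by a small amount throughout. All 37 nuclear-encoded genes had a negative log2 fold change (median -0.73), and in 33 both M4 libraries lay below both M1 libraries, against 33.2% of all protein-coding genes. Most changes were under 2-fold, and 7 were called lower and 0 higher by edgeR and by DESeq2, and 7 and 0 by edgeR with the exchanged libraries. At an unadjusted p below 0.05, 30 were lower and 0 higher. COX5B, of complex IV, went from 301 and 266 to 99.8 and 97.7 CPM (-1.52 ± 0.15, adjusted p = 0.000537), and COX6B1 (-1.40), SDHD (-1.10), ATP5PO (-1.08), NDUFA4 (-1.07), COX7C (-1.03) and COX6C (-1.02) were the others called. Leaving out M1 replicate 1 gave 2 calls and leaving out M1 replicate 2 gave 15. MT-CO1, encoded by mitochondrial DNA, went from 12580 and 18390 to 7093 and 7277 CPM (-1.11), and mitochondrial RNA took up 5.11% and 6.85% of the M1 libraries and 3.59% and 3.42% of the M4 libraries.

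Glycolysis and hypoxia genes showed no common direction, with 4 of 38 called higher and 3 lower (median -0.02). Over all protein-coding genes 10.4% were called higher and 11.9% lower. With the exchanged libraries the list had 0 higher and 1 lower, and 0 and 5 at an unadjusted p below 0.05 in edgeR. The lactate exporter SLC16A3 (143 and 116 to 443 and 466 CPM, 1.81 ± 0.15), ENO2 (2.92), PFKP (1.26) and P4HA1 (1.09) were higher. The core glycolytic genes GAPDH (-0.26 ± 0.32), PKM (-0.02 ± 0.17) and LDHA (0.43 ± 0.27) were not called. CA12, a carbonic anhydrase, fell from 226 and 149.7 to 18.6 and 61.7 CPM (-2.23 ± 0.57). CA9, the classical hypoxia marker, was at 1.59 and 41.7 CPM in M1 against 0.599 and 0.269 in M4 (-5.59 ± 1.66, adjusted p = 0.0394) and was thus high in M1 replicate 2 alone. Calls were 1 and 2 without M1 replicate 1, 2 and 0 without M4 replicate 1, and 1 and 1 without M4 replicate 2, and 1 gene was lower without M1 replicate 2.

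Several defining markers of other cell types were at or near 0, while other markers on the same lists were expressed. PTPRC, the leukocyte antigen CD45, had 0 and 3 counts (M1) against 0 and 0 (M4), CDH5 of endothelium 6 and 1 against 11 and 2, LUM of fibroblasts 0 and 2 against 0 and 0, and CD3D, CD3E and ADIPOQ had none. The 15 leukocyte markers summed to 26.1 to 74.7 CPM in M1 and 78.6 to 87.2 CPM in M4, with 1 called higher and 3 lower of 8 tested, the higher one being CD68, a lysosomal membrane protein (2.73). The 10 endothelial markers summed to 2.97 to 3.46 CPM in M1 and 0.423 to 0.617 in M4 (0 higher and 1 lower of 4 tested). The 10 fibroblast markers summed to 12.7 to 62.4 CPM in M1 and 18.6 to 37.7 in M4 (1 and 3 of 6), and the 10 adipocyte markers to 45.8 to 146 CPM and 68.1 to 72.1 (1 and 3 of 6). M1 replicate 1 was the library that stood out in the last 2 lists, with DCN at 34.1 and 1.62 CPM and FABP4 at 95 and 4.29 CPM in the M1 libraries. With the exchanged libraries the counts of higher and lower markers were 1 and 0 (leukocyte), 0 and 0 (endothelial), 0 and 2 (fibroblast) and 1 and 0 (adipocyte). At an unadjusted p below 0.05 in edgeR these were 2 and 2, 0 and 1, 1 and 4, and 1 and 2. Leaving out 1 library gave 0 to 3 higher and 1 to 2 lower leukocyte markers, 0 to 1 higher and 1 to 3 lower fibroblast markers, and 0 to 1 higher and 1 to 3 lower adipocyte markers. The part of other cells in the results above was not tested. The basal markers summed to 20100 to 23700 CPM in M1 and 24600 to 26300 in M4, so all 4 libraries carried basal epithelial markers. These sums are no check of the library labels.

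The share of genes called differed between chromosomes. On chromosome 3, 18.4% of the 788 genes tested were called higher and 8.88% lower (median log2 fold change 0.34), against 10.4% and 11.9% over all chromosomes. On chromosome 19 the split was reversed, with 7.41% of 999 genes higher and 19.7% lower (median -0.37). Chromosome 20 had 8.15% higher and 15.5% lower, chromosome 9 had 12.7% and 9.98%, and chromosome 10 had 11.9% and 8.62%. Neighbouring genes are not independent, and no test was made of these shares. Copy number was not measured in these libraries.

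**Figure D5:**
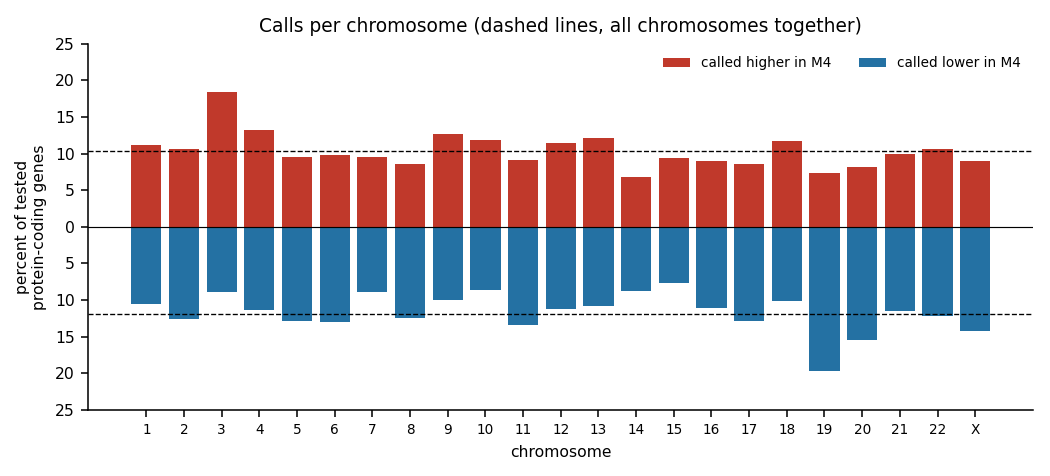
Percent of tested protein-coding genes (y axis) called higher in M4 (bars upward) and lower in M4 (bars downward) on each chromosome (x axis), with dashed lines at the 10.4% and 11.9% of all chromosomes. Chromosome 3 stands out for its 18.4% higher and chromosome 19 for its 19.7% lower.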

How the data were processed

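Poly(A) RNA of 8 acinar cultures (4 lines, 2 biological duplicates each) had been sequenced in pairs on a HiSeq after TruSeq library preparation. The authors deposited 1 table of expected counts for 56632 genes and 8 libraries, unnormalised. Their notes name Trimmomatic, STAR, GRCh37 (hg19) and GENCODE 19, and RSEM counting. Tool versions and whether strand was used in counting are not given in the sources used here. As 12.8% of values are not whole, they were rounded. Gene types and GRCh37 positions came from a GENCODE 44 annotation, which matched 94.7% of the 29446 genes with a count.

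All 8 libraries were fitted together in edgeR 4.0.16 (R 4.3.3, filterByExpr by line, TMM, robust quasi-likelihood F test, 18432 genes). P-values were adjusted over all genes by Benjamini-Hochberg, and protein-coding genes were called at an adjusted p below 0.05 with more than a 2-fold change. CPM values use TMM library sizes, and SE is that of the log2 fold change. The spread behind each SE and p-value was estimated over all 4 lines and not over M1 and M4 alone. M2, whose replicates were the most alike (coefficient of variation 0.058, against 0.377 in M1 and 0.271 in M4), entered that estimate. A count floor of 3 a library gave the bounds for genes without a count. Counts of members called are to be read beside the shares called over all protein-coding genes, with no set test.

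The members and the 30 gene lists (851 genes, 781 tested) were chosen with earlier results of these data known. Named genes are the 12 with the largest fold among called genes with 100 counts or more in each library of the higher line, the 10 with the largest difference of CPM, the 6 largest called and 2 highest uncalled members of each list, and fixed genes altered in mammary tumours. Some genes that this rule or a list selects are not reported here. Further members were named for their role after their values were seen. Replicate numbers did not pair the M1 and M4 libraries (correlation of deviations -0.064). Between M3 and M4 that correlation was 0.251, the largest of any pair of lines. The alternatives were other normalizations, filters and fits, DESeq2 1.42.0, stricter and looser thresholds, a replicate block, leaving out each library, the library assignment of the published FPKM table and, added after seeing the data, a fit without the M2 libraries. In simulated counts with 2 replicates, 6 of 49 genes changed by 2-fold, 27 of 47 by 4-fold and 42 of 50 by 16-fold were called, over 17839 genes. Of the unchanged genes, 9 were called. The simulation gave a gene the same spread in every line, whereas the real M1 and M4 replicates were further apart than those of M2. These counts therefore do not measure missed or false calls between the real M1 and M4 libraries. A call needs more than a 2-fold change, so the 6 of 49 does not measure how often 2-fold changes are missed.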

Additional observations from a re-analysis of the deposited data

How the results depend on the processing

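The 3145 calls (1469 higher, 1676 lower) became 1393 (659 and 734) with the library assignment of the published FPKM table. Of the 3145, 1348 were called there too, all in the same direction. Of the 193 genes followed by name, 74 lost their call there, among them NT5E, DSG1 and MATN2. Without a minimum fold 5045 genes passed (2568 higher), and at an adjusted p below 0.01 1999 did (942 lower). Leaving out 1 library gave 2164 to 3152 calls, 1200 to 1553 higher and 964 to 1599 lower, fewest without M4 replicate 2. A replicate block gave 3045 calls, of which 2965 were shared, and each list's counts stayed within 1.5 times those given, except the lower leukocyte markers (3 to 1). DESeq2 called 3394 genes, sharing 3093, and total counts as library sizes gave 1568 higher and 1565 lower against 1469 and 1676. Without the M2 libraries, an alternative added after seeing the data, 2768 genes were called. A fit of the M1 and M4 libraries alone called 2623 genes (1297 higher and 1326 lower), of which 2573 were shared. How many true changes near 2-fold went without a call was not tested.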

Other observations

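A pair of gene groups defined by symbol, chosen after the values were seen and therefore not tested, moved with the chromosome and level results. Groups defined by symbol were not counted with the exchanged libraries. Of 82 cytosolic ribosomal protein genes 44 were called lower and 1 higher, against 11.9% and 10.4% of all protein-coding genes. The median log2 fold change of these ribosomal protein genes was -1.02, and 80 had a negative fold change. Together they took up 13.8% and 16.5% of the M1 libraries, 11.8% and 11.4% of M2, 14.5% and 8.78% of M3 and 6.93% and 7.48% of M4. The M3 replicates thus lay on both sides of M2, and the M4 libraries were the lowest. On chromosome 19, 176 zinc finger genes had 41 lower and 10 higher calls (median -0.46) and the other 823 genes 156 and 64 (median -0.35), so both kinds of gene on that chromosome had a negative median. Zinc finger genes of the other chromosomes (223) had 22 lower and 12 higher calls (median -0.12). The 13 protein-coding genes of the mitochondrial genome all had a negative fold change (median -0.51), and 1 was called lower.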
